A study of Capra hircus with 12 samples.

Results

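The microRNA miR-22 was followed in the longissimus dorsi, the long muscle of the back, of Longlin and Nubian goats. Its members were chosen by name, as every row of the deposited table of counts that carries the number 22 as chi-miR-22 with any arm. These were chi-miR-22-3p and chi-miR-22-5p, 2 of 500 miRNAs listed. Small RNA was sequenced from 12 rams, 3 in each of 4 groups, which were Longlin goats (LLG), a native breed of southern China, and Nubian goats (NBG), an introduced breed, each with the age label 1-Month or 10-Month. By their labels the groups differ in breed and age only. The study's methods describe longissimus dorsi samples of rams, so all are whole muscle. A library held between 7002417 and 11350546 miRNA reads (median 9184753).

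A miRNA gene is transcribed into a hairpin precursor, and both strands of the hairpin's stem can be released as mature miRNAs, named 5p and 3p after the end from which they come. The mature strand guides a silencing complex to messenger RNAs, which are then translated less or degraded. miR-22 is abundant in heart and skeletal muscle, and it is best known from the heart, where it promotes the growth of muscle cells and represses, among others, the deacetylases HDAC4 and SIRT1. In the RefSeq annotation of the goat assembly ARS1.2, the gene MIR22 lies on chromosome 19 from 22609247 to 22609347, a stretch of 101 bases. It overlapped 0 other genes of the annotation, and it stood between TLCD2, 3574 bases away, and WDR81, 7762 bases away. The nearest other miRNA gene of the chromosome, MIR2335, was 737973 bases away.

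Some facts of the series touch each value. The 2 age names are exchanged between deposited tables. In both breeds and for 500 of 500 miRNAs, the authors' comparison table gives as its 10-month value what is, within a relative tolerance of 0.001, the mean of the libraries labelled 1-Month where the counts stand. For chi-miR-22-3p in Longlin goats the authors' mean was 101493 under the name 10-month and 22811 under the name 1-month. Nothing in the tables settles which name is right. Libraries are called here as the count table labels them, and each age difference below has the opposite sign under the other naming. The miRNAs of skeletal muscle (miR-1, miR-133a, miR-133b and miR-206) made up 39.1% to 70.8% of the reads of a library, although the labels' extraction text speaks of adipose tissue. The second Nubian 1-Month library stood apart. Its squared correlation with the other 2 libraries of its group averaged 0.944, and with the 3 Nubian 10-Month libraries 0.946.

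The 3p arm was the main product of miR-22, and it was among the most abundant miRNAs of the muscle. Its level is given first as TPM, the number of its reads divided by the miRNA reads of the library and scaled to a common total. Over the 12 libraries chi-miR-22-3p averaged 7140 TPM, the 16th highest mean of 500, and chi-miR-22-5p averaged 242 TPM, the 70th highest. The 2 members were chosen with their age difference in view, so their levels by age are a description without a test.

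In the 3 Longlin 1-Month libraries chi-miR-22-3p was at 9555, 8830 and 8173 TPM. In the Longlin 10-Month libraries it was at 2947, 3082 and 3737 TPM. The 2 groups did not overlap, and the arm went from the 11th to 13th place within a library to the 26th to 30th. In the Nubian 1-Month libraries it was at 22984, 8581 and 7370 TPM, against 3537, 2943 and 3940 TPM in the Nubian 10-Month libraries. These groups did not overlap either, although the first Nubian 1-Month library stood far above the other 2. In that library the arm took 2.30% of all miRNA reads, with a 95% Wilson interval of 2.29% to 2.31% that covers counting error only. Since whole muscle was sequenced, fewer cells of a type and less RNA per cell cannot be told apart.

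The 5p arm, the minor strand, had the same order of groups. It was at 266, 345 and 470 TPM in the Longlin 1-Month libraries and at 49.8, 43.0 and 65.4 TPM in the Longlin 10-Month libraries. In Nubian goats it was at 889, 275 and 284 TPM with the 1-Month label and at 58.6, 40.8 and 116 TPM with the 10-Month label. Every 1-Month library was above every 10-Month library in each breed. Among all miRNAs tested, the 10-Month group lay below without overlap for 14.6% of 314 in Longlin and 10.5% of 295 in Nubian goats, and above without overlap for 55.1% and 22.7%. Even the lowest value of the 5p arm rested on 384 reads.

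**Figure D1:**
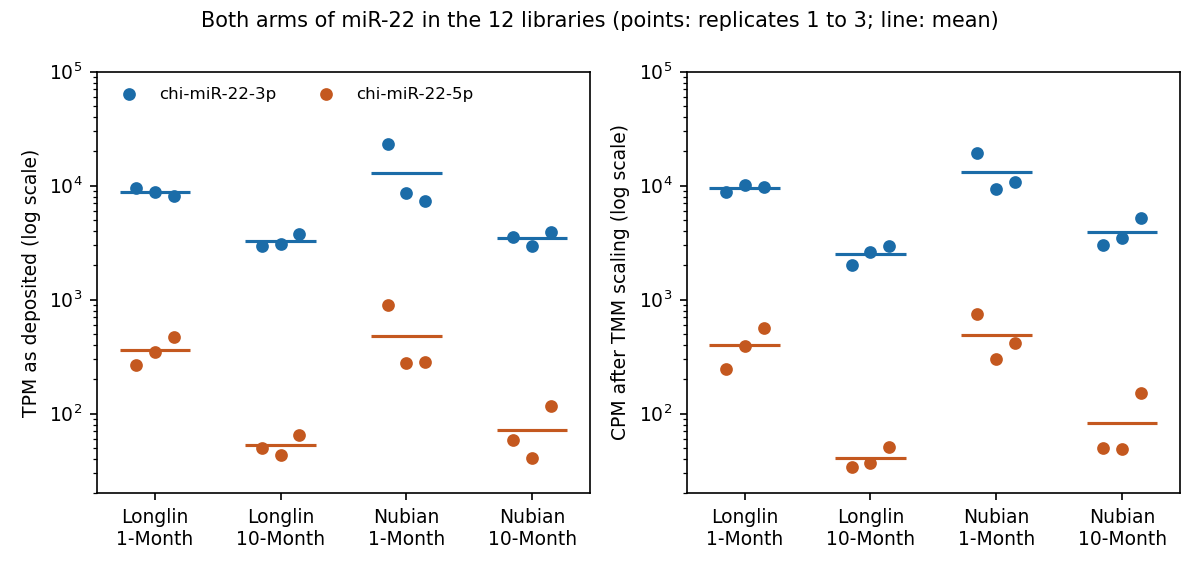
Level of chi-miR-22-3p (blue) and chi-miR-22-5p (orange) in each library, as deposited TPM (left) and as CPM, the same quantity with the library total rescaled by TMM (right), both on log axes. Points are the 3 goats of a group and lines are group means. Both arms are lower with the 10-Month label in both breeds, and the first Nubian 1-Month library is the highest for both arms, at 22984 and 889 TPM.

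Ordered by mean TPM, chi-miR-22-3p was highest in Nubian 1-Month goats at 12978 ± 8686 (SD, n = 3), followed by Longlin 1-Month goats at 8853 ± 691, Nubian 10-Month goats at 3473 ± 502 and Longlin 10-Month goats at 3255 ± 422. The ranges of the 2 groups with the 1-Month label overlapped, as did those of the 2 groups with the 10-Month label, while Longlin 1-Month and Nubian 10-Month goats lay apart. For chi-miR-22-5p the means in the same order were 483 ± 352, 361 ± 103, 71.8 ± 39.3 and 52.7 ± 11.5 TPM. The same neighbours overlapped.

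Fold changes were taken from edgeR with TMM scaling, which sets libraries against each other by the bulk of their miRNAs rather than by the total. From the 1-Month to the 10-Month label, chi-miR-22-3p differed by a log2 fold change of -2.22 (SE 0.25) in Longlin goats, a level 4.67-fold lower. In Nubian goats the difference was -1.86 (SE 0.34), or 3.62-fold lower. The difference of chi-miR-22-5p was larger in size in both breeds, at -3.58 (SE 0.36) in Longlin and -2.66 (SE 0.55) in Nubian goats, which is 12-fold and 6.31-fold lower. From the most negative fold change upward, the 5p arm stood at place 3 and the 3p arm at place 13 of 314 miRNAs in Longlin, and at places 2 and 10 of 295 in Nubian goats. Whether the difference by age was unequal between the breeds was not tested.

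The size of the Longlin difference depended on the scaling. With total counts it was -1.44 (2.72-fold lower) for the 3p arm and -2.77 (6.84-fold lower) for the 5p arm. The median of all miRNAs tested moved at the same time from -0.01 with TMM to 0.79 with total counts. Relative to that median the 3p arm was at -2.21 with TMM and -2.23 with total counts, and the 5p arm at -3.57 and -3.56. In Nubian goats total counts gave -1.90 and -2.75, and the median was -0.11 with TMM and -0.02 with total counts. Both arms were lower in both breeds under every scaling that was run.

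miRNAs of other cell types also differed between the labels. A miRNA was called when its edgeR adjusted p was under 0.05 and its absolute log2 fold change over 1, which held for 50.6% of all miRNAs tested in Longlin and 11.9% in Nubian goats. The 4 fibroblast miRNAs summed to 380 to 632 TPM in Longlin 1-Month, 1615 to 2102 TPM in Longlin 10-Month, 253 to 523 TPM in Nubian 1-Month and 790 to 1440 TPM in Nubian 10-Month libraries, with 1 of 4 members called higher in Longlin and 2 of 4 in Nubian goats. The leukocyte miRNAs, of which 3 of 5 were listed, summed to 310 to 401, 168 to 215, 186 to 431 and 142 to 214 TPM in the same order, and 2 of 3 were called lower in Longlin goats. No marker of these lists that was listed was at 0 in any library. The erythroid miRNAs summed to 221 to 376 TPM in Longlin 1-Month and 399 to 492 TPM in Longlin 10-Month libraries, and their Nubian ranges overlapped, as did those of the endothelial and smooth muscle lists in both breeds. In Longlin goats 1 of 2 erythroid miRNAs tested was called higher, and 1 of 4 smooth muscle miRNAs was called lower in each breed. The liver miRNA miR-122 averaged 1.12 to 1.86 TPM per group. The skeletal muscle miRNAs took 63.3% to 65.7%, 39.1% to 54.3%, 57.1% to 70.8% and 61.7% to 69.1% of reads in that order of groups. The part of these differences in the level of miR-22 was not tested.

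The balance of the arms is a ratio within a library, so no scaling between libraries enters it. The share of the 5p arm among all miR-22 reads was 2.71%, 3.76% and 5.44% in the Longlin 1-Month libraries, and 1.66%, 1.38% and 1.72% in the Longlin 10-Month libraries. In Nubian goats it was 3.72%, 3.11% and 3.71% with the 1-Month label and 1.63%, 1.37% and 2.86% with the 10-Month label. The 2 labels did not overlap within either breed. On average 26.3 reads of the 3p arm were counted per read of the 5p arm in Longlin 1-Month and 62.6 in Longlin 10-Month libraries, and 27.7 and 55.5 in the Nubian libraries. On the log2 scale the ratio of 5p to 3p was lower with the 10-Month label by a difference of -1.31 in Longlin and -0.94 in Nubian goats. Being computed from the age contrast of the members, these are descriptions without a test.

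**Figure D2:**
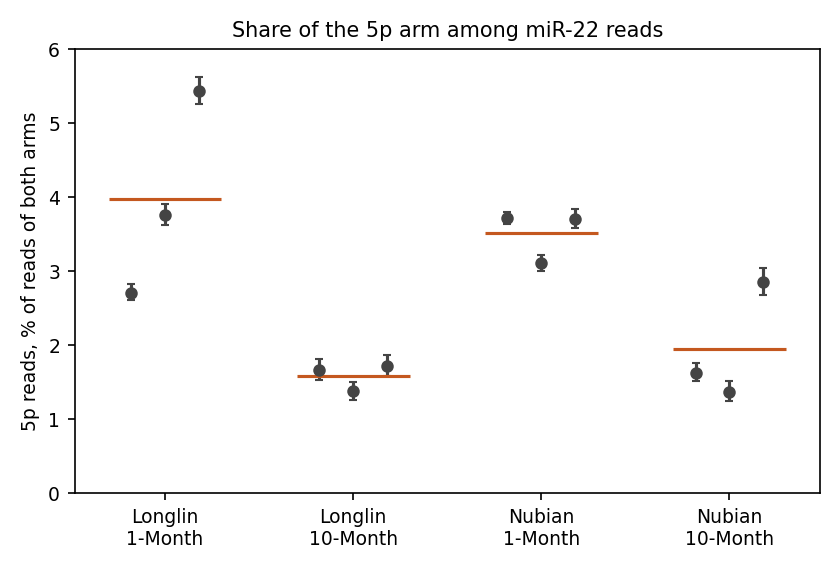
Share of chi-miR-22-5p among the reads of both miR-22 arms, in percent, for the 3 goats of each group. Bars are 95% Wilson intervals, which cover counting error only, and orange lines are group means. Shares with the 10-Month label lie below those with the 1-Month label of the same breed, and the third Nubian 10-Month library, at 2.86%, is nearest to the 1-Month range.

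The arm ratio did not separate the breeds. With each age label as a stratum, the Nubian ratio exceeded the Longlin ratio by 0.05 on the log2 scale, from means of -5.25 and -5.31, and an exact two-sided permutation test within the strata gave p = 0.845, where the smallest p it allows is 0.005. Within the 1-Month label the difference was -0.13 and within the 10-Month label 0.24. Leaving out each library in turn moved the pooled difference between -0.11 and 0.19.

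Other miRNAs set a frame for this change. Both arms were listed and counted for 87 miRNAs, and the median change of their log2 ratio of 5p to 3p was 0.12 in Longlin and 0.32 in Nubian goats. The quartiles were -0.72 and 0.76 in Longlin and -0.20 and 0.96 in Nubian goats, and miR-22 lay below the lower quartile in both. It had the 9th lowest change of 87 in Longlin and the 6th lowest in Nubian goats, and by size without sign it was at places 20 and 29. The ratio was lower without overlap for 18.4% of the 87 in Longlin and 8.05% in Nubian goats. There were 4 miRNAs with a lower ratio without overlap in both breeds, namely miR-129, miR-22, miR-369 and miR-99a, and 11 with a higher ratio. miR-129 had the largest such change, at -4.86 in Longlin and -3.03 in Nubian goats, and miR-369 followed at -2.30 and -2.0. For miR-99a, whose 5p arm held 99.9% of its reads, the changes were -1.44 and -1.32.

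**Figure D3:**
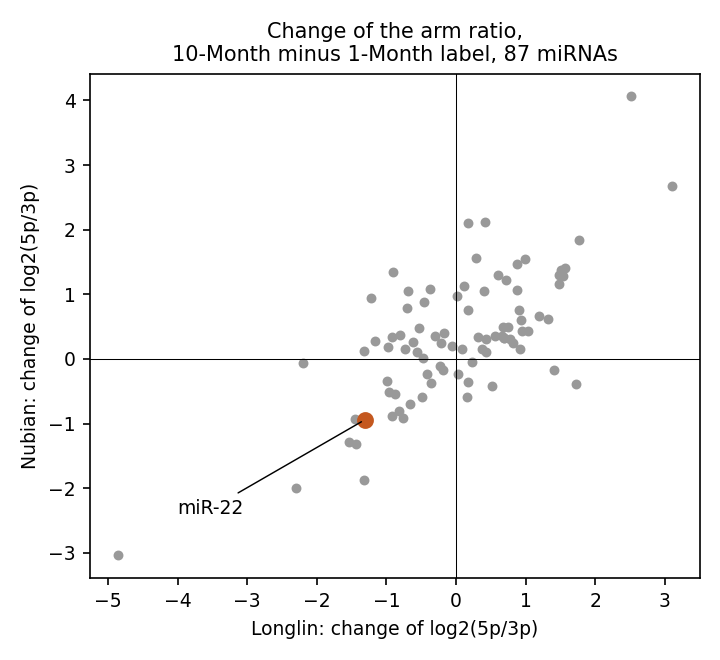
Change of the log2 ratio of 5p to 3p reads from the 1-Month to the 10-Month label in Longlin (horizontal axis) and Nubian goats (vertical axis), with 1 point for each of 87 miRNAs with both arms counted. miR-22 (orange) is at -1.31 and -0.94, to the lower left of most points.

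The breeds were compared next, a contrast that the choice of the members did not use. With age as an additive term over all 12 libraries, chi-miR-22-3p was higher in Nubian than in Longlin goats by a log2 fold change of 0.54 (SE 0.21, 95% interval 0.09 to 0.99), which did not pass edgeR's test after adjustment over 331 miRNAs (adjusted p = 0.23). For chi-miR-22-5p the difference was 0.66 (SE 0.36, interval -0.11 to 1.43, edgeR adjusted p = 0.32). Over all miRNAs 0.604% passed this test. The intervals are not adjusted, and 18.7% of all miRNAs had an unadjusted edgeR p under 0.05 in this fit. Without the second Nubian 1-Month library, the 3p arm gave 0.64 (edgeR adjusted p = 0.050), and 76 miRNAs were called in place of 2.

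Within the age labels the breed difference of miR-22 took different sizes, in fits that were added after the data had been seen. Among the 1-Month libraries it was 0.38 (SE 0.32) for the 3p arm and 0.20 (SE 0.44) for the 5p arm, with an edgeR adjusted p of 0.98 for both. In that fit edgeR called 0 of 277 miRNAs, and 14 had an unadjusted p under 0.05. The first Nubian 1-Month library carried the sign, for without it the 2 differences were -0.07 and -0.31.

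Among the 10-Month libraries chi-miR-22-3p was higher in Nubian goats by 0.89 (SE 0.27, 95% interval 0.28 to 1.51, edgeR adjusted p = 0.042). Of the 313 miRNAs tested 25.2% passed. The 3p arm was at 1997 to 2928 CPM in the Longlin and 3000 to 5155 CPM in the Nubian libraries after TMM scaling. These ranges nearly met, and the share of all miRNAs whose breeds lie apart was not computed. The deposited TPM of these groups overlapped. For chi-miR-22-5p the difference was 1.27 (SE 0.45, interval 0.26 to 2.28, edgeR adjusted p = 0.061). Libraries with the same replicate number deviated together in this comparison (r = 0.31 to 0.38). With the replicate number as a block both arms passed. The 3p arm was then at 0.90 (edgeR adjusted p = 0.0090) and the 5p arm at 1.13 (edgeR adjusted p = 0.0087). The replicate number is known from the library names only, and whether same-numbered goats share a batch is not given. Among the 10-Month libraries, pairs of the breeds with different numbers were at r = -0.34 to 0.02. Among the 1-Month libraries, same-numbered pairs were at r = -0.21 to 0.25, and pairs with different numbers reached 0.33 and 0.29. The block may be arbitrary, which was not tested, and the passing of both arms depends on it. The call of the 3p arm without a block rested in part on the scaling. With DESeq2 size factors in edgeR it held (0.88, edgeR adjusted p = 0.044). It also held with total counts without the 10 most abundant miRNAs (0.84, edgeR adjusted p = 0.044), and it was lost with plain total counts. With total counts the 3p difference was 0.09 (edgeR adjusted p = 0.76) and the 5p difference 0.44 (edgeR adjusted p = 0.42), while the median of all miRNAs went from 0.07 to -0.72. Relative to that median the 3p arm was at 0.82 with TMM and with total counts. The call of the 3p arm without a block was also lost in 5 of 6 fits that left out a library, at edgeR adjusted p of 0.19, 0.18 and 0.058 without Longlin replicates 1, 2 and 3 and of 0.060 and 0.092 without Nubian replicates 2 and 3. For the 5p arm the difference without Nubian replicate 3 was 0.58, and without Nubian replicate 2 the arm passed (1.52, edgeR adjusted p = 0.040).

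The 5 miRNAs whose profiles were nearest to that of chi-miR-22-3p over the 12 libraries were let-7b-3p, miR-1468-5p, miR-193b-3p, miR-193a and miR-1388-3p. Nearness was the root mean square difference of log2 CPM after each miRNA was centred on its own mean, over 330 other miRNAs. The difference was 0.356 for chi-let-7b-3p, 0.396 for chi-miR-1468-5p, 0.400 for chi-miR-193b-3p, 0.401 for chi-miR-193a and 0.451 for chi-miR-1388-3p, against a median of 1.21 and a maximum of 4.59 over all. All 5 had lower means with the 10-Month label in both breeds. chi-let-7b-3p, the minor arm of a let-7 hairpin, went from 8.03 to 4.26 TPM in Longlin and from 9.39 to 3.90 TPM in Nubian goats. chi-miR-1468-5p went from 199 to 119 TPM and from 277 to 106 TPM, and chi-miR-1388-3p from 11.1 to 3.92 TPM and from 10.3 to 3.61 TPM.

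chi-miR-193b-3p, of a family known from muscle and brown fat, went from 528 to 279 TPM in Longlin and from 555 to 236 TPM in Nubian goats. chi-miR-193a was lower than chi-miR-193b-3p by 1.08% to 5.75% in every library, so the 2 rows may count the same reads and are uncertain as separate profiles. The 5p arm of miR-22 itself was at place 32 of 330, with a difference of 0.658. When each of the 12 libraries was left out in turn, chi-miR-1388-3p was among the nearest 5 in 2 fits and chi-miR-1468-5p in 11, and the other 3 in all 12. After the mean of each group had been subtracted, only chi-let-7b-3p of the 5 remained among the nearest 5, and the 5p arm was at place 49. The points share libraries and the age and breed groups, and the nearness is a description.

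**Figure D4:**
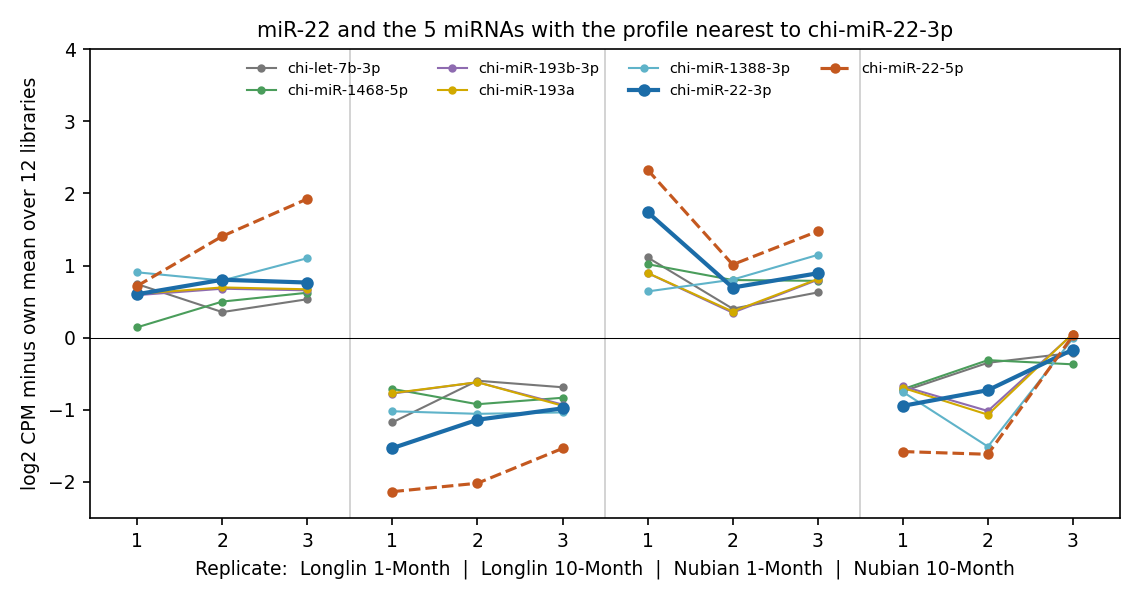
Log2 CPM of both miR-22 arms and of the 5 miRNAs nearest to chi-miR-22-3p, each minus its own mean over the 12 libraries, by group and replicate. Lines join the goats of a group for the eye only. The thin lines follow the 3p arm, while the 5p arm (dashed) reaches farther from 0 in most libraries.

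A list of 24 miRNAs known from muscle growth and atrophy set miR-22 beside other regulators of muscle size. The table listed 18 of the 24. In Longlin goats 6 of 18 tested were called lower with the 10-Month label and 1 higher, where 19.4% of all miRNAs tested were called lower and 31.2% higher. The median log2 fold change of the list was -0.76, against -0.01 over all miRNAs. With total counts 3 members were called lower and 2 higher in Longlin goats, against 7.96% and 42.0% of all miRNAs, and the medians were 0.06 and 0.79. In Nubian goats 2 of 17 tested were called lower and 2 higher, against 5.08% and 6.78% of all, with a median of -0.41 against -0.11.

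Both slow-fibre miRNAs of the list were called lower in both breeds. miR-208b, which is encoded within the slow myosin gene MYH7 and favours slow fibres, went from 50.7 to 6.55 TPM in Longlin goats (log2 fold change -3.72, SE 0.57, edgeR adjusted p = 0.00027). In Nubian goats it went from 102 to 16.5 TPM (-2.89, SE 0.55, edgeR adjusted p = 0.030). miR-499-5p, encoded within the related myosin gene MYH7B, went from 4919 to 2133 TPM in Longlin goats (-1.98, SE 0.39, edgeR adjusted p = 0.0014). The Longlin ranges of miR-499-5p overlapped, at 2095 to 7055 TPM with the 1-Month and 1880 to 2415 TPM with the 10-Month label. Its Nubian levels were 8405 and 3283 TPM (-1.59, SE 0.39, edgeR adjusted p = 0.040). miR-199a-5p was called higher in both breeds, from 128 to 665 TPM (1.61, SE 0.28, edgeR adjusted p = 0.00060) and from 105 to 336 TPM (1.60, SE 0.28, edgeR adjusted p = 0.030). This miRNA is also among the fibroblast markers counted above.

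In Longlin goats 4 further members were called lower. These were miR-1, the most abundant miRNA of the muscle (-1.33), miR-29a-3p, known for repressing collagen genes (-2.36), miR-26a-5p (-1.37) and miR-128-3p (-1.49). With total counts miR-29a-3p was still called in Longlin goats (-1.56), as were miR-208b, miR-499-5p and miR-199a-5p, while miR-1, miR-26a-5p and miR-128-3p were not, so the latter calls rest on the scaling. In Nubian goats miR-199a-3p was the other member called higher (1.28). The Nubian calls were not stable. Each of miR-208b, miR-499-5p and miR-199a-5p kept its Nubian call in 1 of 6 fits that left out a library, and in the other 5 the list had 0 calls, with 4 to 6 members past the fold limit at an unadjusted p under 0.05. Without the second Nubian 1-Month library 7 members were called. With total counts 1 member, miR-208b, was called in Nubian goats.

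**Figure D5:**
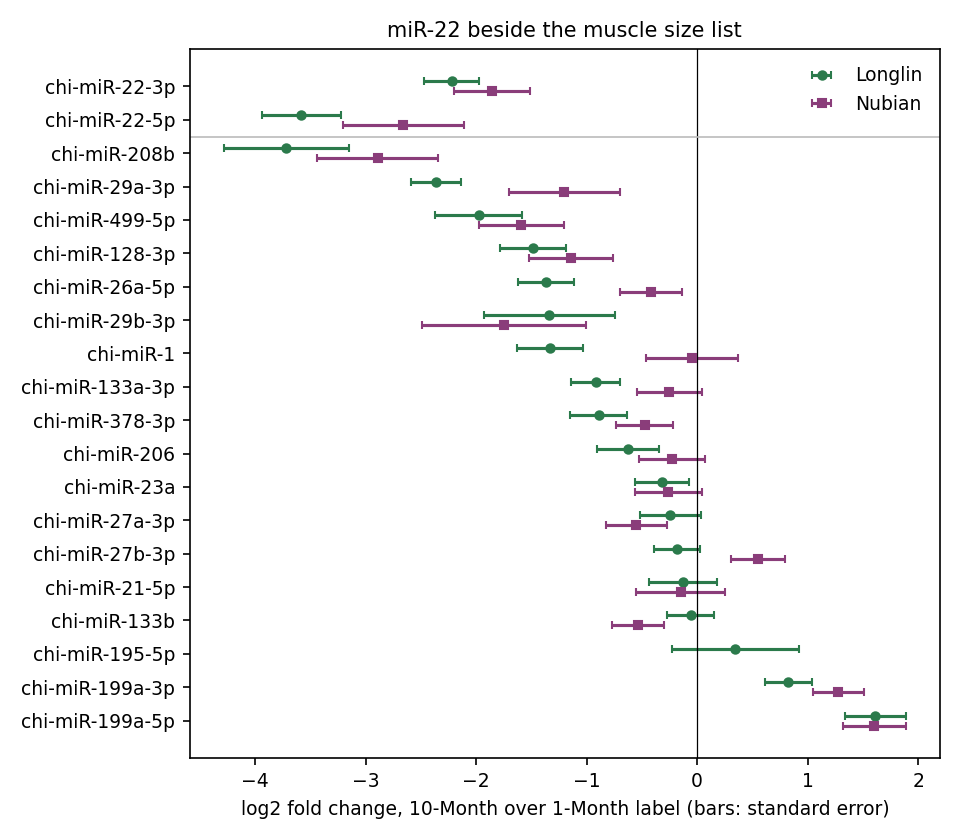
Log2 fold change from the 1-Month to the 10-Month label for both miR-22 arms (top, not tested) and the 18 listed members of the muscle size list, in Longlin (circles) and Nubian goats (squares). Bars are standard errors. In both breeds miR-208b is the lowest member of the list and miR-199a-5p the highest, and both arms of miR-22 lie toward the lower end. miR-195-5p has no Nubian point because its counts were too low.

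The targets are predictions, and no messenger RNA was measured here. The authors' table pairs transcripts with miRNAs where miRanda, PITA and RNAhybrid overlapped. It held 5742 pairs of 386 miRNAs with 1563 genes, and all its transcripts matched the RefSeq annotation. chi-miR-22-3p had 10 pairs with 8 genes, and chi-miR-22-5p had 7 pairs with 7 genes, where the median miRNA had 4 genes. More genes than the 3p arm were listed for 134 miRNAs, and more than the 5p arm for 139. The arms shared 0 genes.

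The genes of the 3p arm included NRAS, a small GTPase of the growth signalling that runs through RAS and MAP kinases (chromosome 3, 91980400 to 91990841), which was paired through 2 transcripts. IFNG, the cytokine interferon gamma (chromosome 5, 44984285 to 44988400), and PDCD10, a protein of the cerebral cavernous malformation complex of vessel walls (chromosome 1, 99229026 to 99277585), were paired with no other miRNA. The same was true of EFCAB14, a gene of an EF-hand protein (chromosome 3, 21307766 to 21346601). Its neighbour TEX38, a testis gene (chromosome 3, 21304408 to 21306170), was paired with 5 other miRNAs, among them miR-1468-5p, which is one of the 5 nearest profiles. PRPS1L1, a testis form of a nucleotide synthesis enzyme (chromosome 4, 93990403 to 93991519), and the unnamed protein-coding gene LOC102175177 (chromosome 3, 77903373 to 77925065) completed the protein-coding genes.

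The eighth gene of the 3p arm was the precursor of another miRNA, MIR365 (chromosome 19, 18118040 to 18118150). Its product miR-365-3p was called lower with the 10-Month label in Longlin goats, at 191 ± 25.9 and 71.7 ± 24.7 TPM (SD, n = 3, log2 fold change -2.24). In Nubian goats it was at 219 ± 138 and 118 ± 41.0 TPM and was not called (-0.95, edgeR adjusted p = 0.11). The table pairs miRNAs with the precursors of miRNAs in 511 of its pairs.

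The 5p arm was paired with MRPS22, a protein of the mitochondrial ribosome (chromosome 1, 129286883 to 129300711), NEU2, a cytosolic sialidase that removes sialic acids (chromosome 3, 8043799 to 8057992), and LPO, the lactoperoxidase of milk and saliva (chromosome 19, 8842272 to 8873407). A pair of genes of sperm formation followed, ODF1 of the sperm tail (chromosome 14, 20322331 to 20331076) and SPATA16 of the acrosome (chromosome 1, 93899946 to 94142137). The unnamed gene LOC102174001 lies on chromosome 5 from 31223289 to 31224206. MRPS22, SPATA16 and LOC102174001 were paired with no other miRNA. Over both arms this held for 6 of 15 genes, where 33.0% of the genes in the whole table had 1 miRNA. The last pair of the 5p arm was its own precursor MIR22, and 55 of the 386 miRNAs were paired with the precursor of their own name.

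The target table covers a small part of the transcripts. Of its 1455 predicted messenger RNAs (RefSeq XM records), 99.9% lay on chromosomes 1 to 5, where 26.9% of the 42263 such records of the annotation lie. The range of their accession numbers held 5.82% of the annotated ones. Of 30 genes known as targets of miR-22 in other species, HDAC4 and SIRT1 among them, all 30 were annotated in goat, 4 were in the table with any miRNA (PPARGC1A, SP1, ERBB3 and WNT1), and 0 were paired with miR-22. With most of the 30 outside the table, that count says nothing of whether miR-22 acts on them in goat muscle.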

How the data were processed

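Small RNA counts from the longissimus dorsi of 12 goats were analysed. The authors mapped filtered reads to ARS1.2, discarded other small RNAs through Rfam, and assigned the rest to goat miRNAs of miRBase. Their methods name HISAT2, and the submitters' processing notes name Bowtie 0.12.2. The authors deposited counts per miRNA without normalization, and TPM, which is the count divided by the total miRNA count of the library, rescaled, with no length term. Group means of counts divided by DESeq2 size factors were deposited by the authors as signal values and were used only to check the age names. Their fold changes and p-values and the GO tables were not used. The deposited target pairs were matched to RefSeq genes of ARS1.2.

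Ages were compared within each breed, and breeds over all 12 libraries with age as a term, by edgeR 4.0.16 in R 4.3.3 (TMM scaling, quasi-likelihood test, Benjamini-Hochberg adjustment) on miRNAs that reached 10 counts in 3 or more libraries. miR-22, its muscle and target lists and the tests were chosen with earlier results of these data known, so its age difference carries no p. Named miRNAs were both arms, the 5 nearest profiles (CPM with a prior count of 0.5), list members called in both breeds and all predicted targets, and other names were chosen after their values were seen. Arm ratios between breeds were tested by exact permutation within age labels (400 arrangements). The arm ratio over all miRNAs used a pseudocount of 0.5. For same-numbered libraries r was 0.31 to 0.38 in the comparison of the breeds within the 10-Month label. In the other comparisons it ranged from -0.21 to 0.25. Libraries with different numbers ranged from -0.42 to 0.33 in the comparison of the breeds within the 1-Month label. Within the 10-Month label they ranged from -0.34 to 0.02. Alternatives were DESeq2 1.42.0, other scalings, no filter, a replicate block and leaving out each library. The edgeR steps were tested on simulated data. Python 3.11.15 with pandas 2.3.3 and scipy 1.17.1 made the tables. Sequencing depth was high for both arms, so the spread between 3 goats and not counting limits the precision. No sequence of miR-22 was used here.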

Additional observations from a re-analysis of the deposited data

How the results depend on the processing

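The age difference of both arms kept its sign under every alternative run. With total counts it was smaller in Longlin goats, at -1.44 for the 3p arm and -2.77 for the 5p arm. Leaving out each library gave -2.27 to -1.85 and -3.83 to -3.26 in Longlin goats, and -2.02 to -1.53 and -3.30 to -2.27 in Nubian goats. The arm ratio's age difference, averaged over the breeds, lay between -1.28 and -0.99. The breed difference of the ratio, near 0, turned to -0.0742 without Longlin 1-Month replicate 1, to -0.106 without Nubian 10-Month replicate 3 and to -0.0455 percentage points when taken as a share, with a highest value of 0.19. The breed differences over all 12 libraries lay between 0.41 and 0.66 for the 3p arm and between 0.28 and 0.85 for the 5p arm without each library, and were 0.32 and 0.43 with total counts, none past the threshold. Within the 1-Month label, without each library, they ranged from -0.0686 to 0.64 and from -0.308 to 0.52, both negative without Nubian replicate 1. Within the 10-Month label they ranged from 0.62 to 1.05 and from 0.58 to 1.54 without each library, and total counts gave 0.0935 and 0.44. The distance between the profiles of the arms was 0.329 after group means were subtracted, and 0.582 to 0.686 without each library.

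Numbers of calls moved more. Without each library they ranged from 116 to 164 of all miRNAs in Longlin goats, from 0 to 97 in Nubian goats and from 0 to 76 between breeds, and for the muscle size list from 7 to 8 and from 0 to 7. Where edgeR called 0 miRNAs in Nubian goats, 52 to 73 passed the fold limit at an unadjusted p under 0.05, and where it called 0 between breeds, 36 to 54 had such a p. DESeq2 called 79 miRNAs in Nubian goats, where edgeR called 35, and 13 between breeds, where edgeR called 2. With total counts 1 list member was called in Nubian goats, and the split of calls turned toward higher, with 25 lower and 132 higher in Longlin and 4 lower and 34 higher in Nubian goats, against 61 and 98 and 15 and 20 with TMM. With the replicate number as a block the age differences were -2.25 and -3.56 in Longlin and -1.83 and -2.77 in Nubian goats, and the breed difference of the 5p arm within the 10-Month label, 1.13, passed the test. The block changed no other call of miR-22. Of 235 alternative values, 194 kept their sign and side of the threshold or stayed within the spread, 28 moved, 6 became weaker, 2 stronger and 5 reversed. The causes of these moves were not tested.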
